A study of Mus musculus with 8 samples.

Results

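Striatal projection neurons, also called medium spiny neurons, are the inhibitory output cells of the striatum. Dopamine and adenosine receptors on these cells act through cAMP, and a set of G protein subunits, phosphodiesterases and phosphoprotein regulators shapes that signal. The medial prefrontal cortex (mPFC) lies in front of the striatum and is built mostly of excitatory neurons, with a minority of local inhibitory cells. The genes described here are 8 that are strongly used by striatal projection neurons (Adora2a, Rgs9, Ppp1r1b, Six3, Pde10a, Pde1b, Gng7 and Foxp1), out of 23435 gene names with a tested probe. They were selected on measured values of these same arrays, in which several of them stood apart in 1 animal, so their levels and differences are given as a description with no test.

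RNA of the mPFC came from 4 mice with maternal separation (MS) and 4 control mice, all male and of the inbred strain C3H/HeN, with 1 single-colour array per mouse. MS pups were taken from the dam each day between postnatal days 2 and 14 while the dam received unpredictable stressors, and control litters did not undergo this. All mice were weaned at postnatal day 21, performed operant tests for palatable food as adults, and were food-deprived before they were killed. A name such as control 8.4 gives the group and the animal number. The digit before the point recurs in 3 MS mice (7) and in 3 control mice (8), and what it stands for was not stated, so mice that share it may not be independent. Levels are the log2 signal after subtraction of each array's 75th percentile, so a difference of 1 is a 2-fold change. Because whole tissue was measured, fewer cells of a type and less RNA per cell cannot be told apart.

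The arrays differed in brightness, and 1 control array stood apart. The 75th percentile of the signal ran from 588 to 892.4, the share of probes well above background from 61.55% to 68.94%, and no spot was saturated. Control 8.4 correlated with its fellow arrays at a median of 0.987, and each of the other 7 at 0.993 or more. Control 8.4 was at least 1 log2 above the mean of the other 7 animals for 1.96% of tested probes, while the same share lay between 0.0997% and 0.889% for the other arrays. All 10 markers of cortical excitatory neurons were well above background on all 8 arrays.

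Each of the 8 genes had between 1 and 5 probes, 20 in all, of which 17 were tested. Testing required a signal well above background throughout MS or throughout control. The brightest tested probe stands for the gene. The first 30 bases of the 60-base probes that carry the main pattern are printed here, 5′ to 3′ on the sense strand, with positions on build mm9. The Adora2a probe (chr10:74797461-74797520) is shown because much of its start is a repeat of 4 bases, in capitals.

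Adora2a: gcttGTTTGTTTGTTTgtgttttattttcc

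The brightest Rgs9 probe (chr11:109086669-109086728, minus strand) and the next (chr11:109086675-109086734) are shown because they overlap by 54 bases, with the shared bases in capitals, and so are not independent readings.

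Rgs9, brightest probe: GTGGGCCAGAAGATATCCCTTGCTgcctta

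Rgs9, overlapping probe: aggcatGTGGGCCAGAAGATATCCCTTGCT

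The Six3 probe (chr17:86023349-86023408) and the brightest Foxp1 probe (chr6:98880084-98880143, minus strand) are shown because these genes stood on opposite sides in control 8.4.

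Six3: atccctagaacaaaccgaaatcaggataca

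Foxp1: ccagattttgaccatgacagagattacgaa

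Control 8.4 had the highest level of 7 of the 8 genes and the lowest level of the eighth, Foxp1. Over all 34098 tested probes, control 8.4 was highest of the 8 arrays for 17.9% and lowest for 33.0%, and since the genes were chosen for this pattern nothing is read from their count. On the 17 tested probes of these genes it was highest on 11 and lowest on 4, and those 4 were all Foxp1 probes.

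Adora2a encodes the adenosine receptor of indirect-pathway striatal neurons, which raises cAMP. Its level was -1.52, -2.27, -2.91 and -2.07 in MS mice 5.3, 7.1, 7.2 and 7.6, against -2.36, -2.90, 0.26 and -2.22 in control mice 6.2, 8.2, 8.4 and 8.5. Control 8.4 lay 2.58 log2 above the mean of the other 7 animals, a 6.0-fold excess, and 1.79 above the nearest animal. The MS and control values otherwise overlapped. MS mice averaged -2.20 ± 0.57 and control mice -1.81 ± 1.4 (SD, n = 4 each), and the 3 control mice without 8.4 averaged -2.49 ± 0.36.

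Gng7 encodes the G protein gamma subunit that pairs with the stimulatory alpha subunit Gnal in striatal neurons. Its brightest probe (chr10:80411369-80411428) read 3.19, 2.88, 3.15 and 2.77 in MS mice, against 3.12, 3.16, 3.82 and 3.39 in control mice in the same order of animals. Control 8.4 was again highest, 0.73 log2 above the other 7. A dimmer Gng7 probe gave -2.03 ± 0.16 in MS and -2.01 ± 0.24 in control mice (SD, n = 4 each), with control 8.4 in the middle. The dimmest, well above background on 7 arrays, read -5.32, -4.99, -5.15 and -6.96 in MS mice and -4.67, -4.91, -4.41 and -4.26 in control mice. The groups did not overlap there, but the probe was at background in MS 7.6 and was tested only through its control values, so nothing is read from this.

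Rgs9 encodes a regulator that shortens G protein signals downstream of dopamine and opioid receptors in the striatum. The brightest probe read 0.75, 0.93, 0.59 and 0.55 in MS mice and 0.57, 0.86, 3.38 and 1.08 in control mice. Control 8.4 was 2.62 log2 above the mean of the other 7 animals, a 6.13-fold excess against an SD of 0.20 among them. The overlapping probe gave 2.51, and 2 dim probes elsewhere in the gene gave 1.39 and 0.65, with control 8.4 the highest on each of the 4.

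Pde10a and Pde1b encode phosphodiesterases, enzymes that break down cyclic nucleotides, the first enriched in striatal projection neurons and the second activated by calcium and calmodulin. The brightest Pde10a probe (chr17:9174995-9175054) read 2.31, 1.86, 2.14 and 2.17 in MS mice and 2.07, 2.36, 2.49 and 2.34 in control mice. Control 8.4 was highest by 0.13 log2, less than the SD of 0.18 among the other 7. A second tested Pde10a probe differed between MS and control by 0.0 log2, and by 0.05 without control 8.4, and its r with the brightest was 0.03 over the other 7 animals. The Pde1b probe (chr15:103360424-103360483) read 4.65, 4.48, 4.68 and 4.69 in MS mice and 4.62, 4.70, 4.98 and 4.77 in control mice. Pde10a was 1.24-fold and Pde1b 1.25-fold above the mean of the others in control 8.4 (0.32 log2 each, with 0.60 for Pde1b in the authors' table), and MS 7.1 was the lowest animal for both.

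Ppp1r1b encodes DARPP-32, which is phosphorylated by the cAMP-dependent kinase and then inhibits protein phosphatase 1. Its probe (chr11:98218965-98219024) read 3.31, 3.24, 3.32 and 3.18 in MS mice, against 3.25, 3.19, 4.23 and 3.13 in control mice. Control 8.4 stood at 2.00-fold the mean of the other 7, whose SD was 0.068 log2. The other 7 animals spanned 0.19 log2, the narrowest range among the brightest probes of these genes.

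Six3 encodes a homeobox transcription factor needed for indirect-pathway neurons of the mouse striatum. Its tested probe was dim, at -4.74, -4.63, -5.10 and -5.02 in MS mice and -4.42, -4.70, -2.47 and -4.44 in control mice. Control 8.4 was 2.25 log2 (4.76-fold) above the mean of the others, and 0.94 log2 above it with normexp background correction. A second Six3 probe was at background on all 8 arrays.

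Foxp1 encodes a forkhead transcription factor of striatal projection neurons that cortical excitatory neurons use as well. Its brightest probe read 3.81, 3.91, 3.69 and 3.67 in MS mice and 3.76, 3.65, 3.02 and 3.86 in control mice. Here control 8.4 was the lowest animal, 0.75 log2 below the mean of the other 7, whose SD was 0.10. The 3 other tested Foxp1 probes were lowest in control 8.4 too, by -0.74, -0.53 and -0.35 log2, and the first of these spans 4338 bases of genome and so crosses a splice junction.

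**Figure D1:**
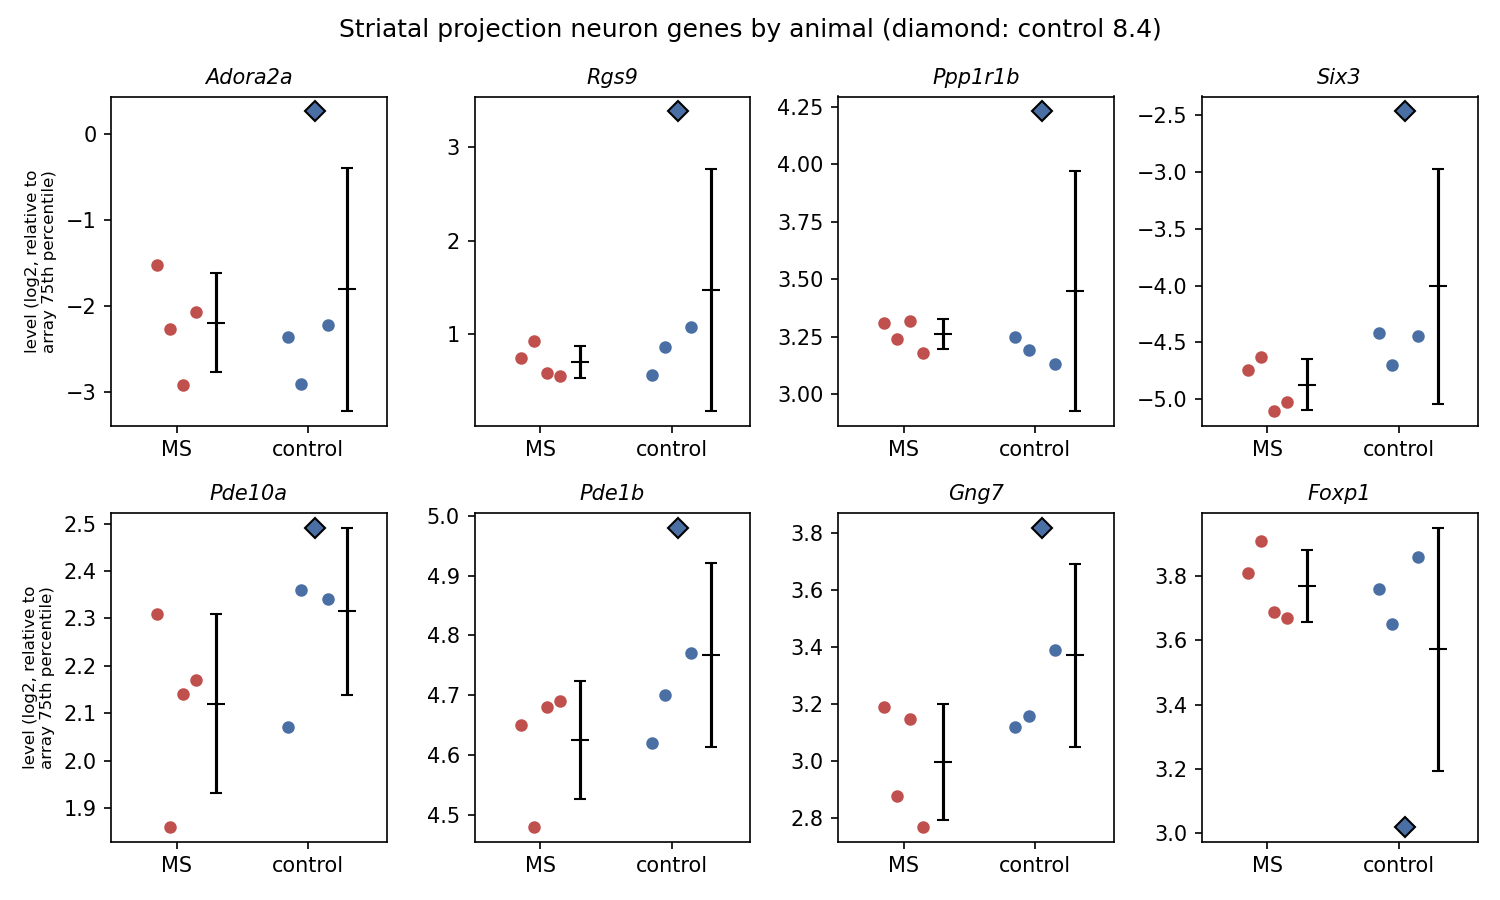
Level of each gene's brightest probe (log2, relative to the array's 75th percentile) in each of 4 MS and 4 control mice, with the mean and SD beside the points and a separate scale per gene. The diamond, control 8.4, is the top point in 7 panels and the bottom point for Foxp1 at 3.02.

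**Figure D2:**
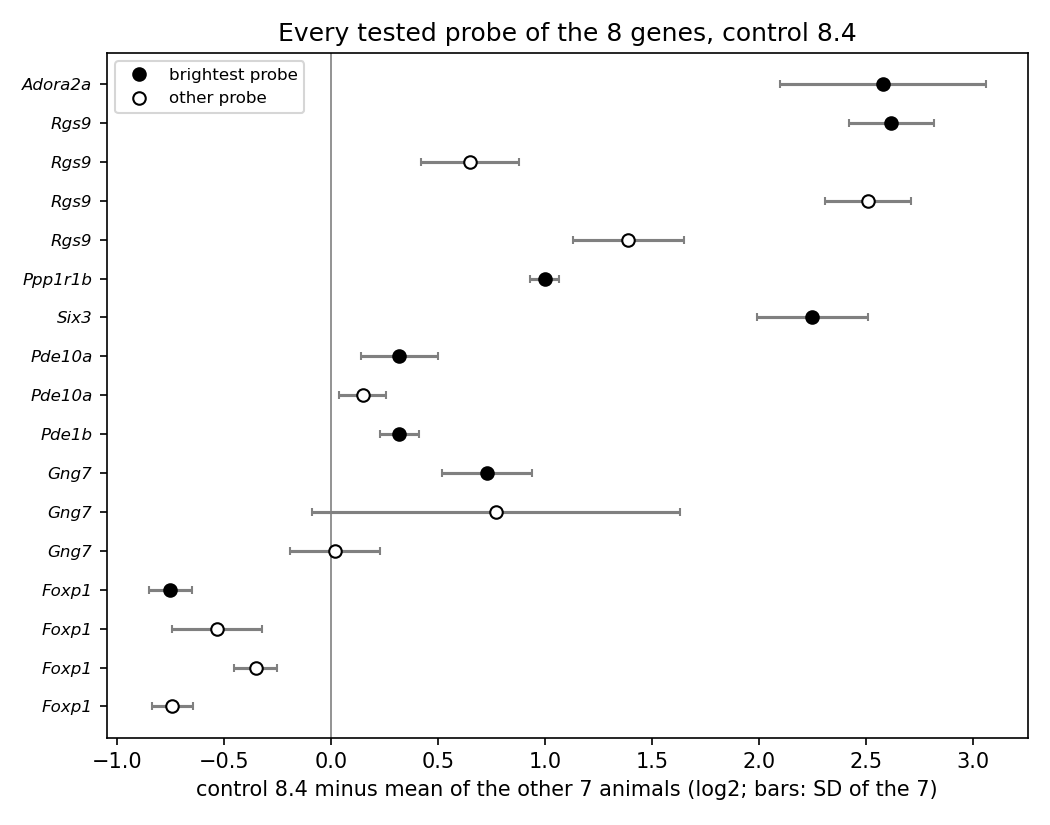
Level in control 8.4 minus the mean of the other 7 animals (log2) for each of the 17 tested probes, with the SD of the 7 animals as bars. Adora2a, Six3 and the overlapping Rgs9 probes lie above 2, and the 4 Foxp1 probes lie below 0.

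Whether MS left a difference in the mPFC transcriptome is the question the comparison addresses. Across the whole array, 0 of 34098 probes passed an adjusted p of 0.05 in limma (0.0%), with 815 at an unadjusted p under 0.05, and 0 of the 17 tested probes of these genes passed. As a description, 7 of the 8 genes averaged lower in MS, with a median log2 difference (MS minus control) of -0.29, beside 0.01 over all tested probes. Without control 8.4 the median was -0.10, and 5 of 8 were lower.

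The single genes show how much rested on that animal. Six3 differed by -0.86 (SE 0.44) and by -0.35 (SE 0.14) without control 8.4, and by -0.33 from all mice with normexp background correction, where Rgs9 (-0.76) was the lowest. The authors' table held no value for this Six3 probe, so no difference could be taken from it. Rgs9 differed by -0.77 (SE 0.54) and by -0.13 (SE 0.14), and Gng7 by -0.38 (SE 0.17) and by -0.23 (SE 0.13). Adora2a and Ppp1r1b turned direction, at -0.39 and -0.19 with control 8.4 and 0.30 and 0.07 without it. Pde10a (-0.20 and -0.14) and Pde1b (-0.14 and -0.07) kept theirs on the brightest probe, and Foxp1 was 0.19 with control 8.4 and 0.01 without. The MS and control values overlapped on the brightest probe of every gene. Over all tested probes, 0.575% had every MS value below every control value and 0.853% had every MS value above.

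**Figure D3:**
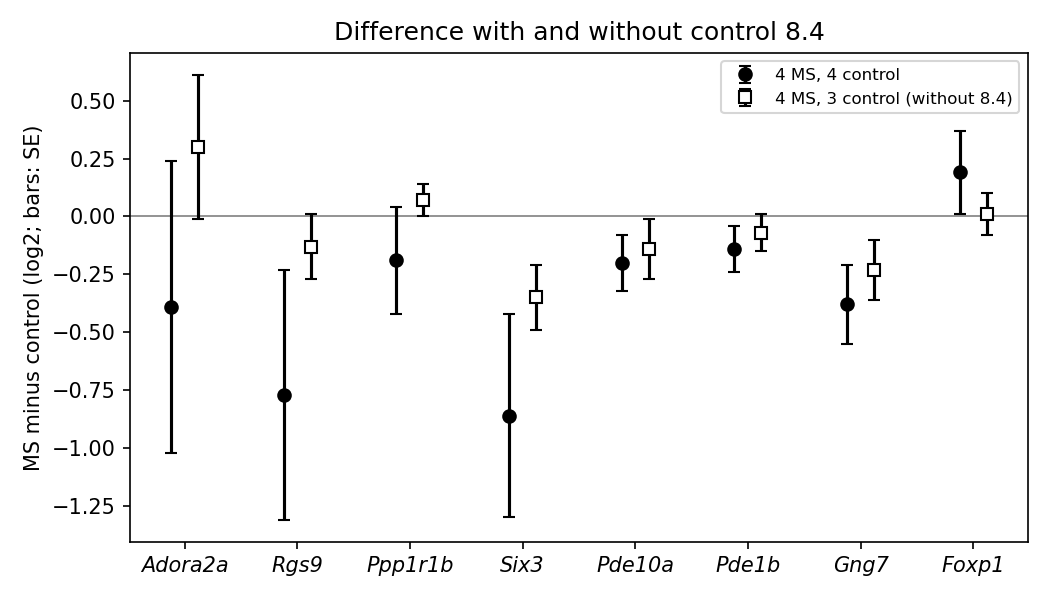
Log2 difference, MS minus control, with its standard error for each gene, from all 8 mice (filled) and without control 8.4 (open). Six3 and Rgs9 lie lowest with all mice at -0.86 and -0.77 (-0.33 and -0.76 with normexp), and Adora2a and Ppp1r1b lie above 0 without control 8.4.

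A score was taken as the mean over the 8 genes of the log2 level minus the mean of the 8 animals. It was 0.0, -0.17, -0.28 and -0.23 in MS mice 5.3, 7.1, 7.2 and 7.6, and -0.14, -0.18, 0.99 and 0.02 in control mice 6.2, 8.2, 8.4 and 8.5. The 7 animals other than control 8.4 thus lay within 0.30 of each other, with both groups mixed. With Foxp1 left out, a choice made after its values were seen, the score of control 8.4 was 1.23.

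The correlation between these genes also rested on control 8.4. Over 8 animals the 28 pairs had a median Pearson's r of 0.75, but a median Spearman's rho of 0.29. The 21 pairs without Foxp1 were all positive and the 7 pairs with Foxp1 all negative. Over the 7 animals without control 8.4 the median r was 0.05 and the median rho 0.05, with 17 pairs positive and 11 negative. Pde10a and Pde1b kept a high value, with an r of 0.88 over 8 and over 7 animals and a rho of 0.90 and 0.86. Rgs9 and Ppp1r1b gave 0.95 over 8 animals and -0.53 over 7. All points share 1 slide and the same scaling, and no p is given because the genes were chosen for this pattern.

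**Figure D4:**
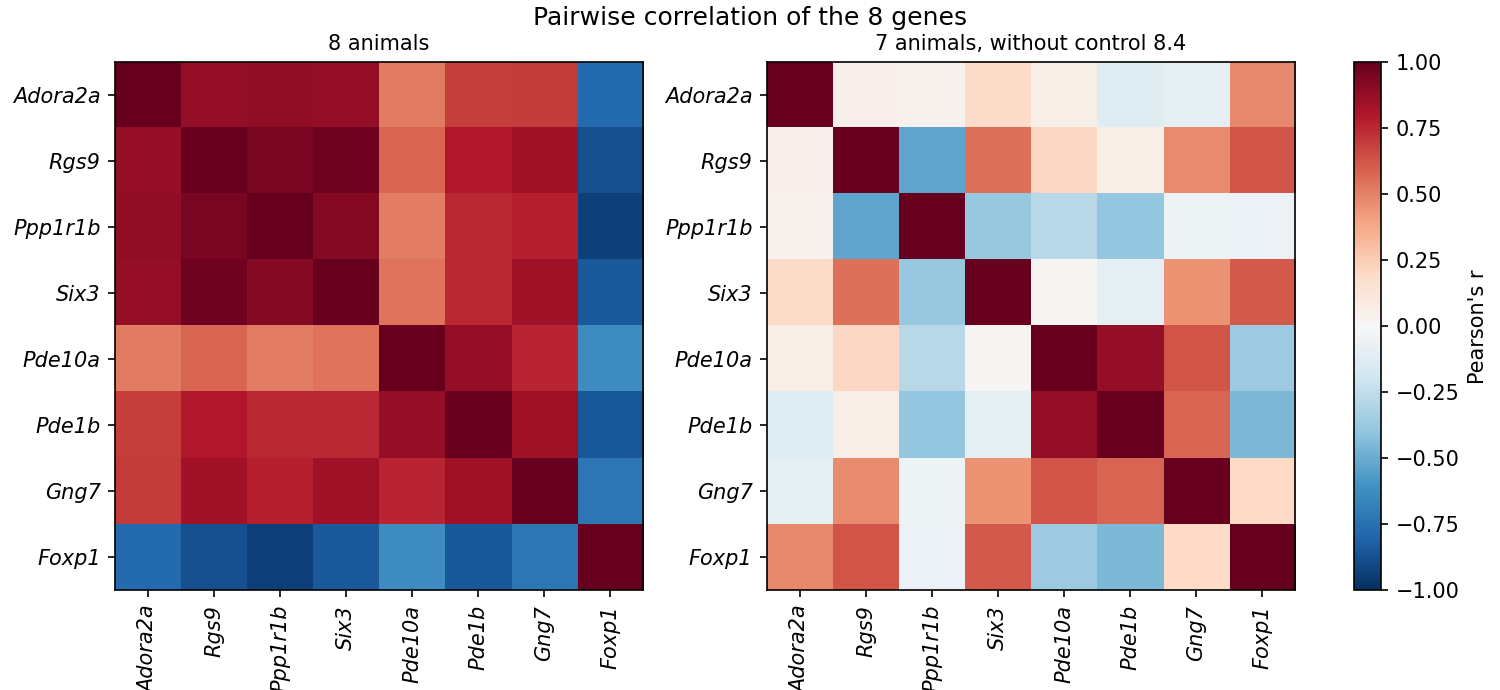
Pearson's r between each pair of the 8 genes over all 8 animals (left) and over the 7 animals without control 8.4 (right), from -1 (blue) to 1 (red). The median over pairs is 0.75 on the left and 0.05 on the right.

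Among 7761 other genes that varied enough and were well above background on all arrays, the profile most like the score over 8 animals was that of Slc35f4, a member of a solute carrier family (r = 0.9903). Oprk1, the kappa opioid receptor that binds dynorphin, had an r of 0.9799 and read -3.39, -3.51, -3.74 and -3.51 in MS mice and -3.68, -3.62, -2.47 and -3.46 in control mice. Syt9, a synaptotagmin (r = 0.9763), was also among the 10. All 10 were higher in control 8.4 than in the mean of the other animals, by 0.52 to 1.21 log2. Over the other 7 animals the 10 most similar genes, of 6072, were led by Pip4k2a (r = 0.9873) and Cygb (r = 0.9789), and 0 were among the first 10. This second ranking required an SD of at least 0.15 over those 7 animals. Slc35f4, at 0.47 to 0.63 in them, could not enter it, so nothing is read from the lack of overlap.

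Other genes that mark striatal projection neurons were then set beside these 8, from lists chosen with earlier results of these data known. Of 15 tested markers of both striatal pathways, 10 were highest in control 8.4 and 5 were at least 1 log2 above the other animals, with a median of 0.58, beside -0.08 over all tested probes. For this and the marker lists below, the shares over all tested probes were 17.9% highest and 33.0% lowest in control 8.4. Syndig1l, a transmembrane protein, was 8.5-fold above the mean of the other 7. Foxp2, a relative of Foxp1 whose probe was dim at -4.77 to -4.11 in those animals, was 2.82-fold above it. Gnal, Arpp21 and Dclk3 were at 0.955, 0.891 and 0.958 of it. None of the 15 passed the test between MS and control.

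Markers of the separate pathways were mixed. Of the 4 indirect-pathway markers, 3 were highest in control 8.4, with the opioid peptide precursor Penk 4.01-fold and the dopamine receptor Drd2 1.63-fold above the other animals. Drd2 was dim, at -5.36 to -4.82 in the other animals. It was well above background on 7 arrays, and so not throughout both groups. Of 7 tested direct-pathway markers, 3 were highest in control 8.4. These were Slc35d3 (12.5-fold), the tachykinin precursor Tac1 (2.72-fold) and the dopamine receptor Drd1 (2.06-fold), while Pdyn and the muscarinic receptor Chrm4 were lowest there. Slc35d3 was dim in most other animals, at -4.6 in the lowest. For the dim Six3 probe the excess fell from 2.25 to 0.94 log2 with normexp, so folds of dim probes may depend on background correction.

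Markers of other cells moved with control 8.4 as well. Of 9 tested olfactory bulb markers, 7 were highest in it and at least 1 log2 above the others, and their summed linear level ran from 3.57 to 21 in MS mice and from 3.6 to 49.2 in control mice, the highest being control 8.4. The olfactory bulb score was 1.24 in MS 7.6 and 0.82 in control 8.5, where the score of the 8 genes was -0.23 and 0.02. Among the 7 animals other than control 8.4, control 8.5 had the highest score of the 8 genes, 0.02 beside 0.0 in MS 5.3. It was the highest of the 7 for Rgs9, Gng7 and Pde1b. It was the lowest for Ppp1r1b (3.13), and was not the highest for Adora2a, Six3, Pde10a or Foxp1. The striatal markers Slc35d3, Penk and Syndig1l had their highest MS values in MS 7.6, at -1.79, 4.01 and -2.0. The 4 general markers of GABAergic neurons were all highest in control 8.4, with a summed level of 69.1 to 89.2 in MS mice and 71.4 to 121.0 in control mice.

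Of 10 cortical excitatory markers, 9 were lowest in control 8.4, the side on which Foxp1 stood. Their summed level was 59.8 to 67.1 in MS mice and 48.7 to 63.6 in control mice, the lowest being control 8.4. Fezf2, a transcription factor of cortical projection neurons, was at 0.494 of the other animals. Of 10 myelin genes, 8 were highest in control 8.4, with Mbp lowest there, and their summed level was 111.0 to 123.0 in MS mice and 103.0 to 145.0 in control mice, with control 8.4 at 130.0. Choroid plexus (3 of 4 tested), astrocyte (4 of 6), septal (2 of 3) and cholinergic interneuron (2 of 3) markers were likewise mostly highest there. The summed astrocyte level was not raised, at 43.3 to 46.9 in MS mice and 44.5 to 46.5 in control mice, with control 8.4 at 44.5. The summed levels of the choroid plexus, septal and cholinergic lists were highest in control 8.4. No marker list was without detected genes, although Ido1 of the striatal list was at background on all 8 arrays. The part of any of these cells in the levels of the 8 genes was not tested.

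**Figure D5:**
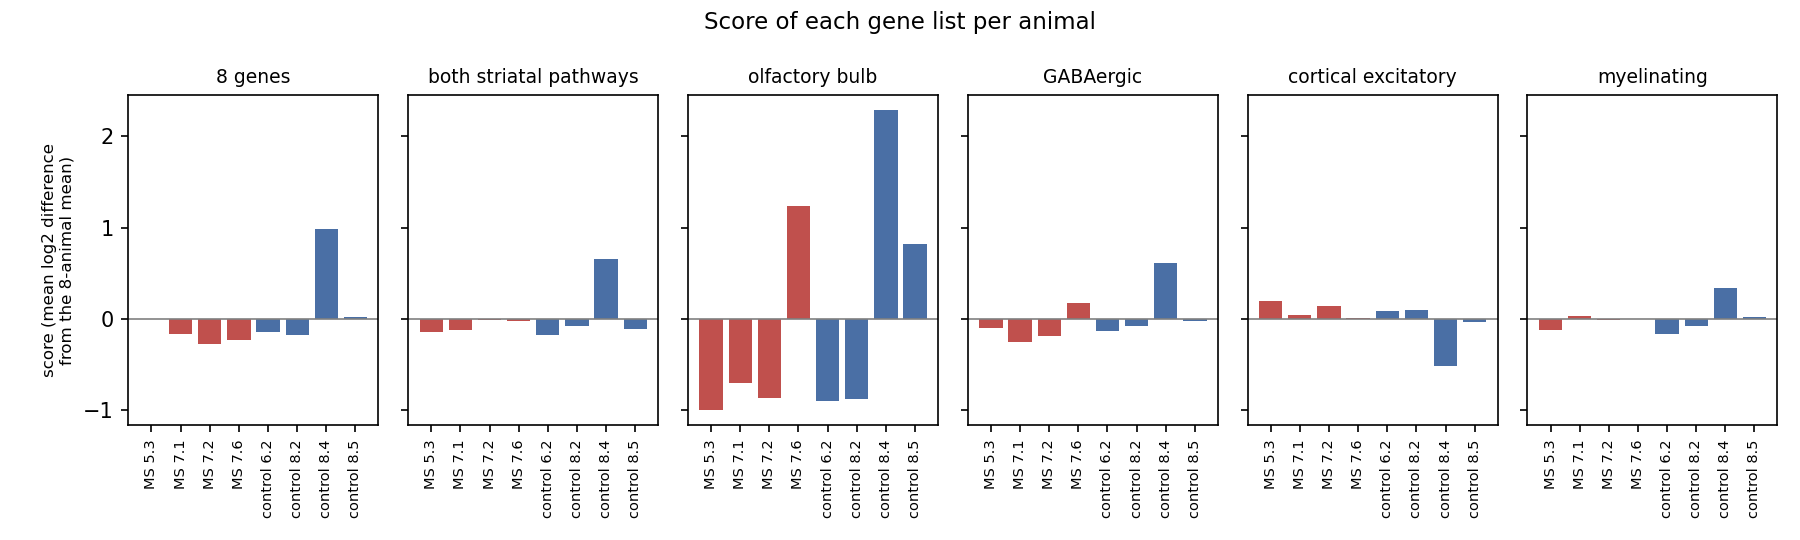
Score of 6 gene lists in each animal (mean log2 difference from the mean of the 8 animals), MS mice in red and control mice in blue. Control 8.4 is highest in 5 lists and lowest for the cortical excitatory markers, and MS 7.6 is high for the olfactory bulb list at 1.24 but not for the 8 genes at -0.23.

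The partners of these genes in signalling did not share the pattern as a group. Of 15 genes of cAMP and DARPP-32 signalling, 4 were highest and 6 lowest in control 8.4, with a median of -0.07. Over all tested probes 17.9% were highest and 33.0% lowest there, with a median of -0.08. Drd1 stood 1.04 log2 above the other animals, Ppp1cc, a catalytic subunit of protein phosphatase 1, stood 0.60 above, and the kinase subunits Prkaca and Prkacb stood at -0.41 and -0.43. Of 12 other phosphodiesterases, 4 were highest in control 8.4, led by Pde1c at 2.57-fold, and 3 were lowest, among them Pde1a at 0.594 and Pde2a at 0.745 of the other animals. The Pde1c probe was dim, at -4.61 to -4.0 in the other animals.

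Within the families of the 8 genes, relatives stood on both sides in control 8.4. The lists are short, and over all tested probes 17.9% were highest and 33.0% lowest there, so nothing is read from their counts. Of the R7 RGS family and the partners of Rgs9, 1 of 6 was highest and 3 were lowest in control 8.4, with Rgs6 at 0.604 of the others and the obligate partner Gnb5 at 1.11. Of 10 other G protein gamma subunits 4 were highest, with Gng4 at 3.28-fold. The adenosine receptor Adora1 was at 0.937 of the others. Adora3 read -3.63, -3.60, -3.71 and -3.76 in MS mice and 2.26, -3.72, -4.02 and -4.04 in control mice, high in control 6.2 alone. Across these 7 lists 0 genes passed the test between MS and control in either direction.

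Promoter sequence was looked up because 7 of the genes were high in the same animal and 1 was low. RefSeq (GRCm38.p6) gave 12 promoters for 6 of the genes, Foxp1, Gng7, Pde10a, Pde1b, Rgs9 and Six3. The 250 bases before the start were searched on both strands for the cAMP response element TGACGTCA and the shorter TGACG contained in it, the GC box GGGCGG, the TATA box TATAAA, the forkhead core TAAACA and the Egr site GCGTGGGCG. GGGCGG was in 6 of the 12 and in 32.7% of all 32851 promoters, TAAACA in 4 of 12 and in 12%, TGACG in 2 of 12 and in 17.8%, and TATAAA in 1 of 12 and in 12.4%. The promoters with TAAACA were all 3 of Foxp1 and 1 of Pde1b. Promoters of the same gene are not independent, so nothing is read from these shares. TGACGTCA (1.55% of all promoters) and GCGTGGGCG (0.536%) were in 0 of the 12. The promoters of Rgs9 (chr11:109298182-109298431, minus strand), Six3 (chr17:85620584-85620833, plus strand) and 1 of 3 of Foxp1 (chr6:99028299-99028548, minus strand) are printed for 2 genes with a high excess in control 8.4 and for the one that was low there, with matches in capitals. A match is a description of letters and not a site.

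Rgs9 promoter: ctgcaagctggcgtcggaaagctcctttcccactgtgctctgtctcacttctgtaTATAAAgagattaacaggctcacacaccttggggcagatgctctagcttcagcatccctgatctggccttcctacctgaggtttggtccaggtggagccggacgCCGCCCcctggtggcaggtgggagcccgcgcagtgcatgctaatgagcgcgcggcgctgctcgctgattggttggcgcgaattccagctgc

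Six3 promoter: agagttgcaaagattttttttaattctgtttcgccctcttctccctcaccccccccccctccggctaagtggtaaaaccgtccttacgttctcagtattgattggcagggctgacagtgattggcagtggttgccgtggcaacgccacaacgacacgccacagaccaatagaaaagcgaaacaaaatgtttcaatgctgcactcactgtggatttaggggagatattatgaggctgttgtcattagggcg

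Foxp1 promoter: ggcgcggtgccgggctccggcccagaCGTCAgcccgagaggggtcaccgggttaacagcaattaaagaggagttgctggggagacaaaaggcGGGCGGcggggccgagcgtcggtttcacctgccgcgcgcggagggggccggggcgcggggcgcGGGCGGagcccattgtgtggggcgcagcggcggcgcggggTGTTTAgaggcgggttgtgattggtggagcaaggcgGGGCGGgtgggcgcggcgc

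The Rgs9 window held a TATAAA and a GGGCGG match, the Six3 window held none of the 6 motifs, and the Foxp1 window held 3 GGGCGG, 1 TGACG and 1 TAAACA match.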

How the data were processed

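Single-colour Agilent arrays were hybridised with mPFC RNA of 8 mice, 1 array each, on 1 slide whose 2 rows each held both groups. The deposited scanner files give a background-subtracted intensity per spot, from Agilent Feature Extraction 10.10.1.1 per the submitters' processing notes, with no scaling across arrays. A deposited table of log2 values, normalised by the authors, was an alternative. The methods name another array design than the file headers, which were followed and give probe positions on mm9.

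Control spots (3671 of 62976) and spots flagged as outliers were removed, and the log2 signal minus the array's 75th percentile was averaged per probe. Probes well above background throughout MS or throughout control were kept (34098 of 55681). Symbols came from RefSeq by accession (27235 probes), name (3581) or synonym (565), and otherwise from the files.

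MS was compared with control with limma 3.58.1 (lmFit, eBayes, two-sided) in R 4.3.3, with Benjamini-Hochberg adjustment at 0.05 and, as in the study's methods, no covariate. The fit was tested on simulated data. The p-values set the group difference against the spread between animals within a group, and the number of arrays limits the precision. Mice that share a label number may not be independent, so that spread may not be one between independent units. Named genes were the 8, the 10 nearest in profile (SD at least 0.15) over 8 and over 7 animals, of which some are given, and up to 4 genes on each side of each list. The members and lists were chosen with earlier results of these data known. Alternatives were normexp (offset 50), quantile and median scaling, the authors' table, other probe filters, outlier spots kept, slide row and label number as blocks, the mean of a gene's probes, and leaving out each array. Some genes picked by this rule are not reported here.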

Additional observations from a re-analysis of the deposited data

Results flagged for a closer look

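Single animals stood far from the rest of their group for 1 gene in MS mice, and for 2 genes and the score of the 8 genes in control mice. The gap to the nearest animal, divided by the range of the group, was compared with Dixon's 95% limit for 4 animals in 18 groups of values, and chance passes it in about 1 of 20. In MS mice it was 0.844 for Pde1b, where MS 7.1 was lowest at 4.48. In control mice it was 0.89 for Ppp1r1b (4.23), 0.874 for Six3 (-2.47) and 0.83 for the score (0.99), each with control 8.4 as the highest animal. The genes were chosen because they stood apart in this animal, so these control values restate that choice and test nothing, and the score only just passed the limit.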

How the results depend on the processing

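The count of probes past the limma threshold was 0 under each alternative, with 425 (normexp) to 3837 (label number as a random block) at an unadjusted p under 0.05. The block fit estimated a negative correlation (-0.224) between mice that share a label number, and no number occurs in both groups. A negative value narrows the standard error of the group difference, so the 3837 is not read as more signal. The median difference of the 8 genes was -0.37 to -0.10 when 1 array was left out, with -0.10 for control 8.4 left out. The score of control 8.4 minus the mean of the others was 1.13, and 0.95 with normexp. It was 1.02 in the authors' table (7 genes, without Six3) and 1.01 with the mean of all probes of a gene. It was 1.40 without Foxp1, a choice made after seeing the data. Leaving out 1 array gave 1.11 to 1.16. The median r between genes was 0.0 to 0.23 over arrays without control 8.4 and 0.75 to 0.80 with it when 1 array was left out. With median scaling it was 0.29 and 0.72, and with the mean of a gene's probes -0.02 and 0.60. The cause of these shifts was not tested. Of 143 differences of single genes under alternatives 143 moved by less than the SD between animals, and of 119 values of control 8.4 so did 110. The SD used for the differences included control 8.4, which widened it. For Adora2a the control SD was 1.4 with that animal and 0.36 without it. The 143 of 143 is therefore no measure of stability, since Adora2a and Ppp1r1b turned direction without control 8.4 and still counted. No paired analysis was possible because the groups share no animal number.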
